A study of Rattus norvegicus with 4 samples.

Results

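The genes described here were 9 interferon-induced antiviral genes of the rat, namely Rsad2, Mx1, Mx2, Oas1a, Ifit2, Ifit3, Gbp2, Irf7 and Irf1. They were found on the array as the spots whose RefSeq accession resolved to one of these symbols, which gave 11 probes with 1 spot each, out of 41012 probes on the array and 8899 genes that could be named. Rsad2 and Ifit2 had 2 probes, and the brighter one stands for the gene unless the other is named. The set was chosen by its measured values, that is with the log ratios of these same chips known, in which Rsad2 had passed the cutoffs for a lower level after running, so their direction is given as a description and is no support for itself.

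Interferons are cytokines that cells release when they sense viral nucleic acid. Type I interferon binds its receptor and activates the kinases JAK1 and TYK2, and a complex that holds STAT2 and IRF9 then binds interferon-stimulated response elements (ISRE) in front of target genes, whereas interferon gamma acts mainly at gamma-activated sites (GAS). In brain, microglia, astrocytes, endothelial cells and neurons can all express such genes, and a low level is present without infection.

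The hippocampus came from male Wistar rats that were 10 weeks old at the start. Sedentary rats (n = 10) stayed in standard cages, WR rats (n = 8) had free access to a running wheel without resistance for 4 weeks, and RWR rats (n = 8) had a wheel whose resistance was 4.5 g in the first week and was then increased to 30% of body weight. RNA was pooled within each group. The pools were labelled in 2 colours and put on 4 chips of 1 slide, with the sedentary and WR pools on chips 1 and 2 (Sed × WR) and the sedentary and RWR pools on chips 3 and 4 (Sed × RWR). The sedentary pool carried Cy3 on chips 1 and 3 and Cy5 on chips 2 and 4, and the running pool the other dye. The study's methods state that equal amounts of RNA of each replicate were pooled, but not whether a replicate was 1 rat or how the rats of a group were divided among them.

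Both chips of a pair held the same pools, which leaves 1 biological replicate per comparison and no ground for a test of running against rest. Signals are the processed signals of the scanner software, in intensity units, and are compared within a probe only, apart from sums over markers. The signals were not scaled between chips. Median signals on chips 3 and 4 were 74.6 and 69.3 in Cy3 and 78.3 and 71.9 in Cy5. Pools were said to overlap when the higher running signal of a pair reached the lower sedentary signal. An overlap can therefore hold a difference between chips, whereas each ratio is taken within a chip. The error given after ± is a technical SD of the mean of a pair, taken from probes of like signal. It holds no spread between rats, and with so few chips the precision of each value is limited. A gene was said to pass the cutoffs when the running pool was above 1.5-fold or below 0.75-fold of the sedentary pool (log2 0.58 or -0.42) on both chips, with an error-model p under 0.01 on both. Between 67.5% and 82.5% of the noncontrol spots of a chip and dye were well above background. Of the neuron markers listed for the hippocampus, 6 had a probe (Neurod1, Neurod2, Slc17a7, Camk2a, Wfs1 and Grin1) and were well above background in every channel. They mark forebrain neurons and do not set the hippocampus apart from cortex. In pooled tissue RNA, fewer cells of a type and less RNA per cell cannot be told apart.

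The promoters are shown first, as a feature of these genes that was read from the genome and not from the chips. Since the genes are known as interferon-induced, ISRE letters in them are no independent find. Of the 9 genes, 7 had an entry in the RefSeq promoter table of the GRCr8 build, and the 250 bases before the start of the gene were searched on both strands for an ISRE core, GAAA repeated after any 2 bases (TTTC repeated in the same way on the opposite strand), and for the GAS letters TTCNNNGAA. The ISRE core was present in 5 of the 7, Rsad2, Oas1a, Ifit3, Gbp2 and Irf7, against 3.41% of 33469 promoters of the same length. The GAS letters were present in Oas1a and Irf1, against 7.67% of all promoters. Neither was found in the Mx1 window. The stretches around the matches are printed 5′ to 3′ on the strand of the gene, with the ISRE core in capitals for the leading 5 and the GAS letters in capitals for Irf1.
Rsad2: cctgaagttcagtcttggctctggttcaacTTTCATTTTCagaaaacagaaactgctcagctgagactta
Oas1a: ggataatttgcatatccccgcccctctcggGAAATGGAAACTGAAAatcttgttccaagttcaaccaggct
Irf7: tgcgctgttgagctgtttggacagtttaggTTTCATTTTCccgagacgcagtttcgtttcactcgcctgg
Gbp2: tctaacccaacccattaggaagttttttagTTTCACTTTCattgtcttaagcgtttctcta
Ifit3: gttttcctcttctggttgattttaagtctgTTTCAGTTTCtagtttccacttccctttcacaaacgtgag
Irf1: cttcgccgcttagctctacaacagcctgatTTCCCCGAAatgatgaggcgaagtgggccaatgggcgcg

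These stretches lie at chr6:48788228-48788297 (minus strand) for Rsad2, chr12:41330395-41330465 (plus) for Oas1a, chr1:205800053-205800122 (minus) for Irf7, chr2:234005666-234005726 (plus) for Gbp2, chr1:241527252-241527321 (plus) for Ifit3 and chr10:38417763-38417831 (plus) for Irf1. In Rsad2, Irf7, Gbp2 and Ifit3 the core was read on the opposite strand, beginning at positions -147, -69, -31 and -44 from the start of the gene. Oas1a held 2 cores on its own strand, at -41 and -35, which share letters and appear as a single run of capitals. A match describes the letters in these windows and does not show that a factor binds there.

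Rsad2, which encodes viperin, a radical SAM enzyme that makes an antiviral nucleotide, was lower in both running pools and had the lowest ratio of the 9 genes. On chip 1 its signal was 204 in the sedentary pool and 115 in the WR pool, and on chip 2 the signals were 194 and 112. On chip 3 the sedentary and RWR pools gave 219 and 151, and on chip 4 they gave 180 and 118. In each pair the lower sedentary signal still lay above the higher running signal, by 1.68 times in Sed × WR and 1.19 times in Sed × RWR, so the pools did not overlap.

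The log2 ratios of Rsad2 were -0.82 and -0.79 in Sed × WR (mean -0.80 ± 0.07) and -0.54 and -0.61 in Sed × RWR (mean -0.57 ± 0.07), which put WR at 57.3% and RWR at 67.2% of the sedentary level. It was the only one of the 9 genes to pass the cutoffs in Sed × WR, where 0.0674% of the named genes passed them as lower and 0.303% were past the fold alone. In Sed × RWR none of the 9 passed, beside 0.0674% of the named genes. Rsad2 was there past the fold on both chips, as were 1.47% of the named genes, but the p-value was under 0.01 on chip 4 only. With normexp background correction the ratio in Sed × WR was -0.42, and without background correction it was -0.47. Rsad2 passed the cutoffs with neither of these. The other probe, A_44_P370190, was not well above background in any pool, with signals between 4.32 and 13.7, and so gave no level.

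**Figure D1:**
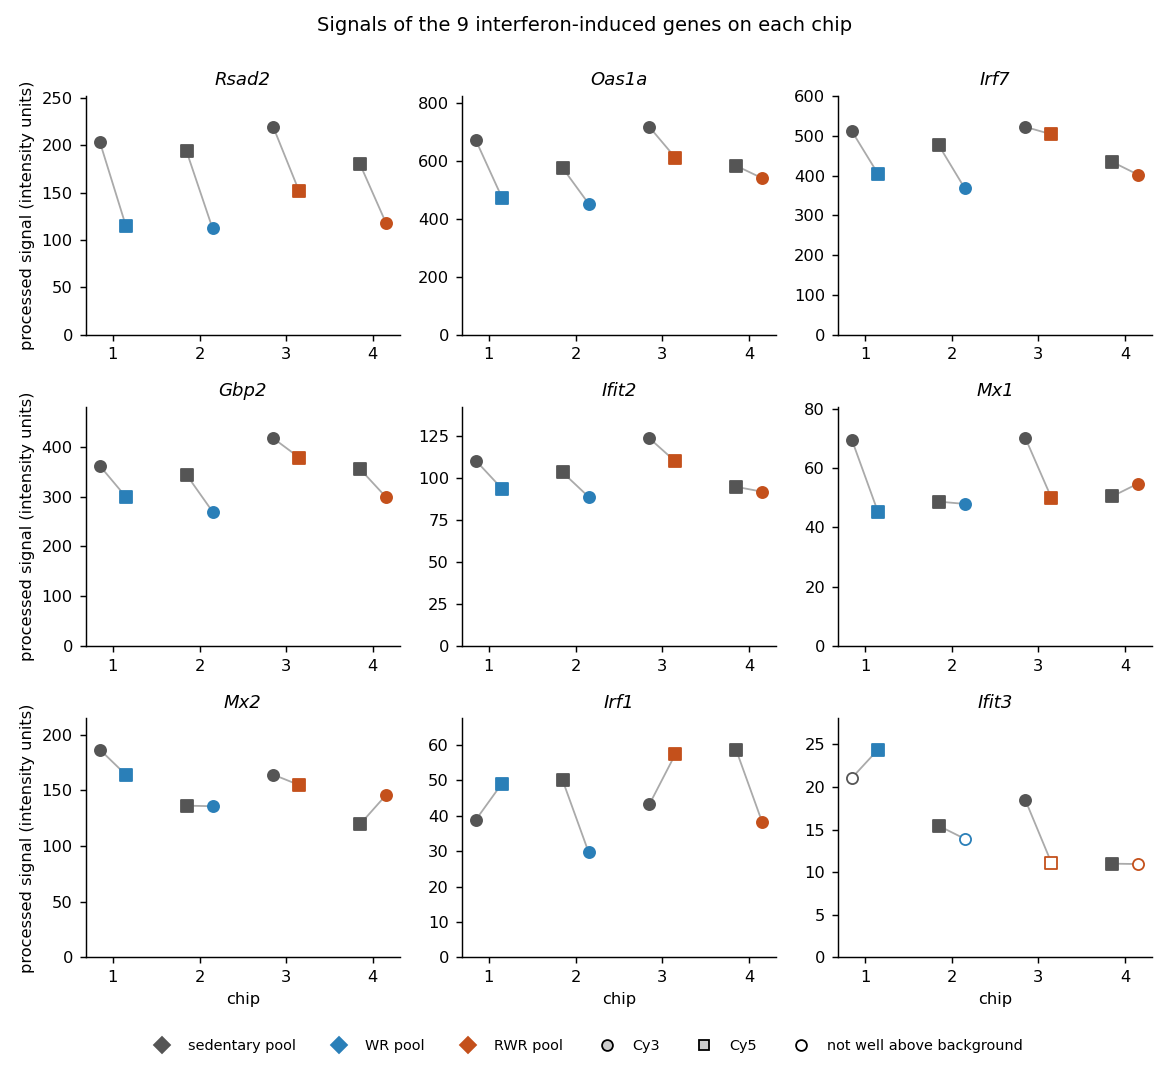
Processed signal (intensity units, linear axis from 0) of each gene's brighter probe on the 4 chips, with the sedentary pool in grey, WR in blue and RWR in orange, circles for Cy3 and squares for Cy5, and open symbols where the signal was not well above background. Rsad2 dropped from sedentary to running on all 4 chips, Irf1 was higher in whichever pool carried Cy5, and Ifit3 lay near background.

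Oas1a, an oligoadenylate synthetase that activates RNase L when it meets double-stranded RNA, was lower in both running pools. Its signals in the sedentary and WR pools were 670 and 473 on chip 1 and 575 and 452 on chip 2. In the sedentary and RWR pools they were 717 and 611 on chip 3 and 583 and 540 on chip 4. The sedentary pool was higher on every chip, and the pools of Sed × WR did not overlap while those of Sed × RWR did.

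The Oas1a log2 ratios were -0.50 and -0.35 in Sed × WR (mean -0.42 ± 0.04, 74.5% of sedentary) and -0.23 and -0.11 in Sed × RWR (mean -0.17 ± 0.04). Chip 2 was short of the 0.75-fold cutoff, and none of the 4 chips had a p-value under 0.01. Oas1b, a close relative in the same family, was not among the 9 genes and had log2 ratios of -0.81 and -0.44 in Sed × WR, past the fold on both chips, and of -0.07 and -0.28 in Sed × RWR. Whether its RNA also hybridizes to the Oas1a probe was not tested.

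Irf7 and Irf1 are transcription factors of this system, Irf7 being the factor that amplifies type I interferon once induced and Irf1 an early target of interferon gamma. Irf7 gave 511 in the sedentary and 405 in the WR pool on chip 1 and 477 and 368 on chip 2. The sedentary and RWR pools gave 523 and 504 on chip 3 and 435 and 402 on chip 4. The WR signals lay below both sedentary signals of their pair. The RWR signal was lower on each chip, but that of chip 3 lay above the sedentary signal of chip 4.

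The Irf7 log2 ratios were -0.34 and -0.37 in Sed × WR (mean -0.35 ± 0.04, 78.2% of sedentary) and -0.05 and -0.11 in Sed × RWR (mean -0.08 ± 0.04). Irf1 behaved otherwise. Its log2 ratios were 0.34 and -0.75 for WR and 0.41 and -0.62 for RWR, positive when the running pool carried Cy5 and negative when it carried Cy3. The dye term, the part of the log2 ratio that follows Cy5 rather than the pool, was 0.54 and 0.51 in the pairs, against means of -0.21 ± 0.17 and -0.10 ± 0.17. The direction of Irf1 was therefore not resolved on these chips, where its signals lay between 29.6 and 58.6.

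**Figure D2:**
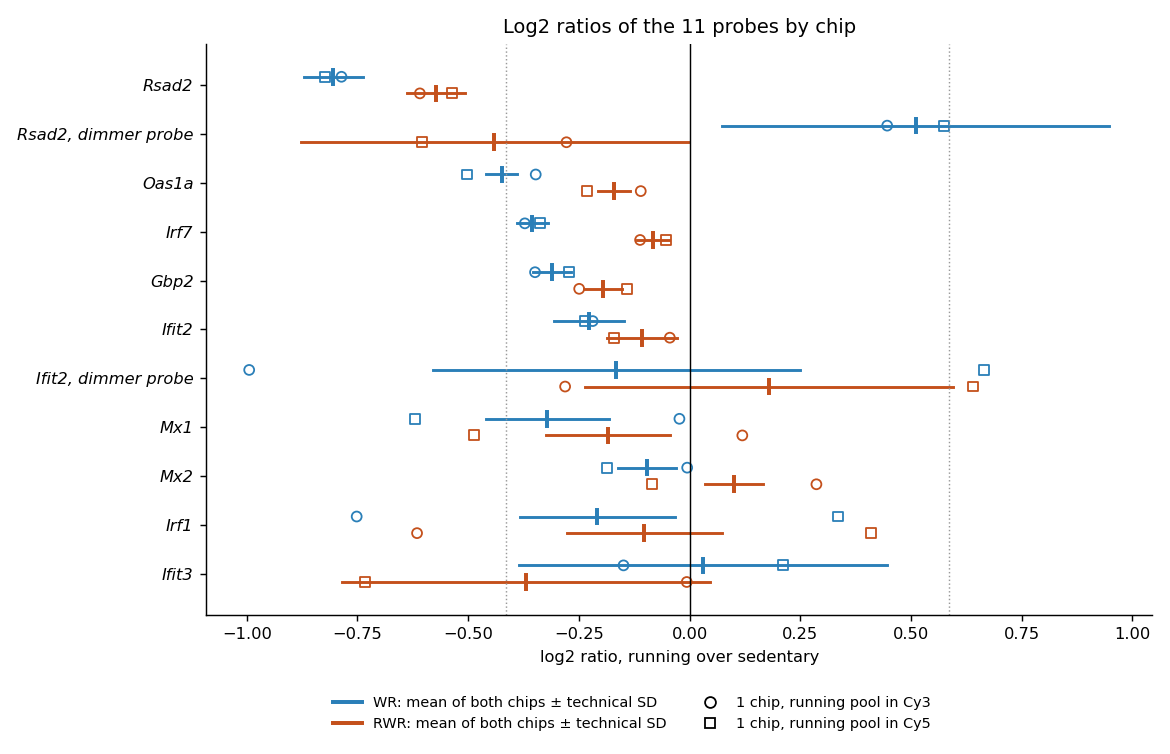
Log2 ratio of running over sedentary for the 11 probes, with WR in blue and RWR in orange, open symbols for single chips (circles with the running pool in Cy3, squares in Cy5), short bars for the mean of a pair and lines for ± 1 technical SD. The dotted lines mark 0.75-fold and 1.5-fold. Rsad2, Oas1a, Irf7, Gbp2 and Ifit2 lie left of 0 on all 4 chips, and the chips of a pair lie on opposite sides of 0 for Irf1.

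Ifit2 and Ifit3 belong to a family that binds viral RNA and blocks its translation. Ifit2 had signals of 110 and 93.8 in the sedentary and WR pools on chip 1 and of 104 and 88.9 on chip 2. On chips 3 and 4 the sedentary pool gave 124 and 94.9 and the RWR pool 110 and 92.0. Its pools did not overlap in Sed × WR and did in Sed × RWR, with log2 ratios of -0.24 and -0.22 (mean -0.23 ± 0.08) and of -0.17 and -0.04 (mean -0.11 ± 0.08).

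The dimmer Ifit2 probe, A_44_P410016, was above background in part of the channels only, and its chips gave opposite directions in both pairs. Ifit3 was near background, with signals between 10.96 and 24.4. Each pool of Sed × WR was well above background on 1 of its chips, with log2 ratios of 0.21 and -0.15, and the RWR pool was so on none, so that no fold is given for Sed × RWR. Ifit1, the founding member of the family, was not well above background in any pool.

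Gbp2, a guanylate-binding GTPase that acts on the membranes of intracellular pathogens and responds strongly to interferon gamma, was lower in both running pools. Its signals in the sedentary and WR pools were 362 and 299 on chip 1 and 344 and 270 on chip 2. In the sedentary and RWR pools they were 417 and 378 on chip 3 and 355 and 299 on chip 4. The running pool was lower on each chip, and the pools overlapped in Sed × RWR only. The log2 ratios were -0.27 and -0.35 in Sed × WR (mean -0.31 ± 0.04) and -0.14 and -0.25 in Sed × RWR (mean -0.20 ± 0.04).

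Mx1 and Mx2 encode dynamin-like GTPases that block viruses, rat Mx1 in the nucleus and rat Mx2 in the cytoplasm. Mx1 gave 69.4 in the sedentary and 45.2 in the WR pool on chip 1 but 48.7 and 47.9 on chip 2. On chip 3 the sedentary and RWR pools gave 70.1 and 49.96, and on chip 4 they gave 50.5 and 54.8. The difference was thus present on the chips with the running pool in Cy5, and the dye term was -0.30 in both pairs, beside means of -0.32 ± 0.14 and -0.18 ± 0.14. In Sed × WR the lower sedentary signal was 1.02 times the higher WR signal, and in Sed × RWR the pools overlapped.

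Mx2 was not on the same side of 0 in both comparisons. It gave 187 and 164 in the sedentary and WR pools on chip 1 and 136 in both on chip 2, and 164 and 155 in the sedentary and RWR pools on chip 3 against 119 and 146 on chip 4. The log2 ratios were -0.19 and -0.01 in Sed × WR (mean -0.10 ± 0.07) and -0.08 and 0.29 in Sed × RWR (mean 0.10 ± 0.07), and the pools overlapped in both pairs.

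Over the 9 genes, 7 were below 0 on both chips in Sed × WR and 6 in Sed × RWR, where 11.6% and 15.7% of the named genes were. The 6 include Ifit3, whose RWR signal was not well above background. Among the 8 genes well above background in every channel 7 and 5 were, beside 15.3% and 17% of 5927 such named genes. Rsad2, Oas1a, Ifit2, Gbp2 and Irf7 were below 0 on all 4 chips, a pattern of 4.29% of the named genes. Of the 8 genes with signals well above background in every channel, 6 had both sedentary signals above both WR signals, and Rsad2 alone had both above the RWR signals, against 5.25% and 1.96% of 5927 named genes of that kind. The median log2 ratio of the 9 genes was -0.31 in Sed × WR and -0.17 in Sed × RWR, and that of all named genes was 0.00 in both. With normexp the medians were -0.18 and -0.026, and without background correction they were -0.14 and -0.028. Since the genes were chosen with results known, these shares describe them and carry no inference.

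**Figure D3:**
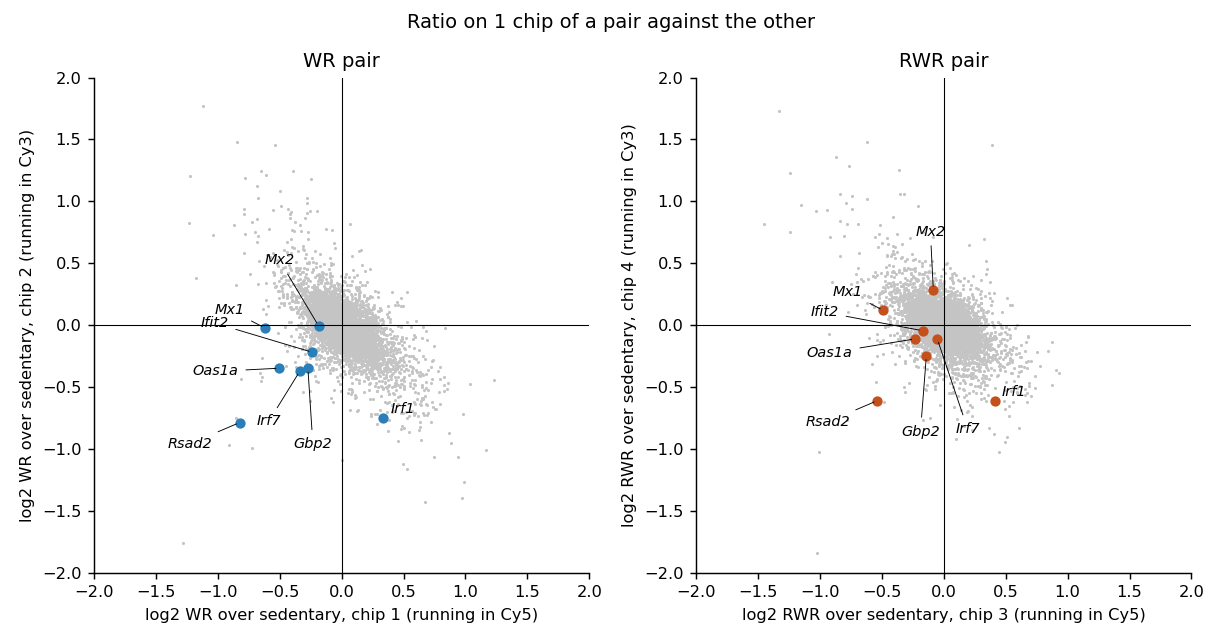
Log2 ratio of running over sedentary on 1 chip of a pair against that on the other, for 5927 named genes well above background in every channel (grey) and the 8 described genes among them (blue for WR, orange for RWR). Genes lower in the running pool on both chips lie in the lower left quadrant, where Rsad2 stands apart from the grey cloud in both panels, and a dye term moves a gene along the falling diagonal, where Irf1 lies.

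The means of a pair matter here because single chips carried a dye term over the whole array. The turned ratios of chips 1 and 2 had a Pearson r of -0.76 across probes, and those of chips 3 and 4 one of -0.69, while chips of the same dye orientation had 0.71 and 0.70. Probes of a chip share their labelling, so these values only describe the chips. The dye terms of Sed × WR and Sed × RWR were -0.02 and 0.04 for Rsad2, 0.02 and 0.03 for Irf7, and 0.04 and 0.05 for Gbp2. They were -0.01 and -0.06 for Ifit2 and -0.08 and -0.06 for Oas1a.

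WR and RWR were each set against the sedentary group, which they share, so their ratios are not independent of each other. All of the 8 genes well above background in every channel had a higher ratio in Sed × RWR than in Sed × WR, where 49.1% of the 5927 named genes did. With normexp and with the median over the probes of a gene 7 of the 8 did, Rsad2 being the exception. The difference RWR minus WR was 0.27 for Irf7, 0.25 for Oas1a, 0.23 for Rsad2 and 0.20 for Mx2. For Rsad2 it was -0.03 with normexp, 0.10 without background correction and -0.36 over both probes, so its direction rests on the processing. The difference was 0.12 for Ifit2, 0.14 for Mx1 and 0.11 for Irf1, with technical SDs of the difference of 0.11, 0.20 and 0.25. For Gbp2 it was 0.12, with 0.01 under normexp and 0.03 without background correction. Of the 8 differences, 6 were above 1 technical SD of the difference and 4 were above 2. The median difference over the 9 genes was 0.14. In Cy5 the Rsad2 signal was 115 in the WR and 151 in the RWR pool, and in Cy3 it was 112 and 118. These signals come from different chips and were not scaled. The sedentary signals beside them were 204 and 219 on chips 1 and 3, and 194 and 180 on chips 2 and 4. No test between WR and RWR was possible.

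The other genes of the pathway were taken from a list of 135, of which 57 had a probe that could be named. Of these 57, Cxcl10 passed the cutoffs in Sed × WR, and Cxcl9 and Cxcl10 passed them in Sed × RWR, all as lower and none as higher. Of all named genes 0.0674% passed as lower in each comparison. The list had a median log2 ratio of -0.08 in Sed × WR and -0.04 in Sed × RWR. In Sed × WR 17 of its genes were below and 3 above 0 on both chips, where 11.6% and 12.2% of all named genes were. In Sed × RWR 12 were below and 7 above, where 15.7% and 12.5% of all named genes were. On all 4 chips 8 of the 57 were below 0, namely Stat2, Myd88, Oas1b, Oasl2, Ifi35, Irgm, Cxcl10 and Psmb10, and Ptpn6 was above. Of all named genes 4.29% were below and 3.84% above 0 on all 4 chips. For the genes of this list with a probe, the promoter table held 49 promoters. The ISRE core was found in 21 of them (42.9%), against 3.41% of all promoters.

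Among the ligands, Ifnb1 and Ifng were not well above background in any pool, with signals between 2.39 and 13.8. Of the receptors, Ifngr1, a chain of the interferon gamma receptor, had mean log2 ratios of 0.06 ± 0.05 and 0.01 ± 0.05 in Sed × WR and Sed × RWR. No probe could be named for Ifnar1, Ifnar2, Ifngr2 or Isg15.

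Among the factors that carry the signal, Stat2 had log2 ratios of -0.37 and -0.34 in Sed × WR (mean -0.35 ± 0.11) and of -0.02 and -0.14 in Sed × RWR (mean -0.08 ± 0.11). Irf9, its partner in the complex that binds the ISRE, gave 0.02 ± 0.04 and 0.12 ± 0.04, and Irf3, which is activated by phosphorylation rather than by induction, gave 0.01 ± 0.03 and 0.03 ± 0.03. Usp18, which removes ISG15 from proteins and restrains the type I receptor, gave -0.30 ± 0.11 and -0.10 ± 0.11.

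Cxcl10, a chemokine induced by interferon that attracts T cells, differed more than any of the 9 genes. Its signals in the sedentary and WR pools were 142 and 58.5 on chip 1 and 194 and 57.3 on chip 2, and in the sedentary and RWR pools 167 and 81.7 on chip 3 and 181 and 50.6 on chip 4. The pools did not overlap in either pair, with mean log2 ratios of -1.52 ± 0.08 and -1.43 ± 0.08. Cxcl9, a related chemokine that responds to interferon gamma, had opposite directions on the chips of Sed × WR (-0.93 and 0.78) and was lower on both of Sed × RWR. There the log2 ratio on chip 3 was -1.08. On chip 4 the RWR signal, 4.85 against 25.6 in the sedentary pool, was not well above background and gives no exact ratio.

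**Figure D4:**
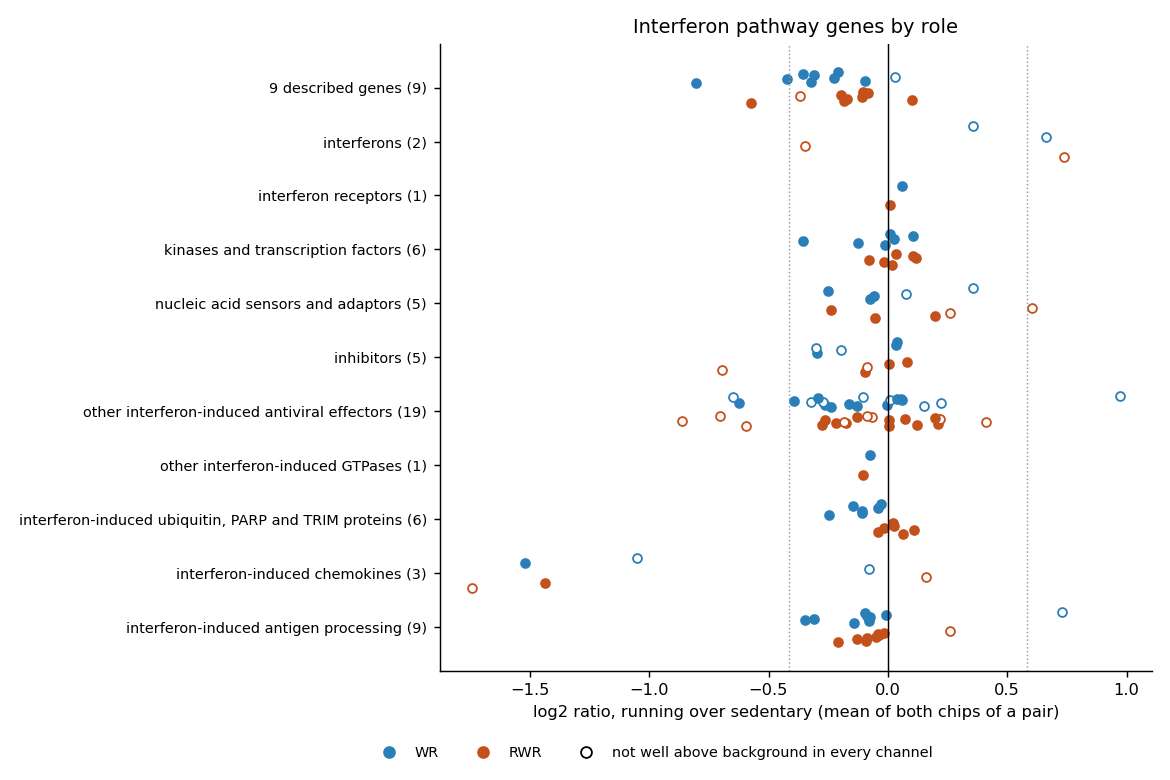
Mean log2 ratio of running over sedentary of the 9 genes and of 57 other interferon pathway genes by role, with the number of genes in brackets, WR in blue, RWR in orange, and open symbols for genes not well above background in every channel. The dotted lines mark 0.75-fold and 1.5-fold. Cxcl10 (-1.52 and -1.43) lies farthest left among filled symbols, and receptors and transcription factors other than Stat2 lie near 0.

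The markers of cell types that can express these genes were read on the same chips. Of 12 microglia markers 10 had a probe, all well above background, with a median log2 ratio of 0.04 in Sed × WR and 0.12 in Sed × RWR. Of these 10, 1 and 2 were below and 3 and 5 above 0 on both chips. Of all named genes 11.6% and 15.7% were below and 12.2% and 12.5% above. The summed signal of the 10 microglia markers in the sedentary and WR pools was 19754 and 19845 on chip 1 and 17701 and 18717 on chip 2. In the sedentary and RWR pools it was 21870 and 23016 on chip 3 and 18035 and 20465 on chip 4. The running pool thus had the higher sum on each chip, but bright probes weigh most in a sum. On chip 1 C1qb alone went from 8131 to 8350, a wider step than that of the sum. Itgam was below 0 on all 4 chips, with means of -0.11 ± 0.08 and -0.28 ± 0.08, and Aif1 and C1qb were above 0 on all 4. The 7 astrocyte markers had medians of 0.01 in both comparisons. Of 12 lymphocyte and leukocyte markers 7 had a probe, and 1 of them, Cd3d, was well above background in every channel. The summed signal of the 7 in the sedentary and WR pools was 327 and 358 on chip 1 and 370 and 310 on chip 2. In the sedentary and RWR pools it was 417 and 437 on chip 3 and 502 and 509 on chip 4. Cd4 and Cd79b were not well above background in any pool. Of 7 endothelial markers 4 had a probe, with medians of -0.04 and -0.11. Over the 3 of them well above background in every channel, without Pecam1, the medians were -0.08 and -0.06. The part of any cell type in the ratios of the 9 genes was not tested.

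The named genes whose 4 log2 ratios lay nearest to those of Rsad2 were Rpl13, Psma2, Pdilt, Myh3 and Grifin, at Euclidean distances of 0.29, 0.59, 0.65, 0.65 and 0.66, among 5919 genes well above background in every channel. None of these 5 was on the interferon list. Rpl13, a ribosomal protein, had -0.85, -0.75, -0.78 and -0.77 on chips 1 to 4, and Rsad2 had -0.82, -0.79, -0.54 and -0.61.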

How the data were processed

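The members and gene lists were chosen with earlier results of these data known. Scans were read by the authors in Feature Extraction 11.0.1.1, with background subtraction and LOWESS dye normalization. The deposited processed signal is a spot's intensity in each dye, the deposited log10 ratio compares Cy5 with Cy3, and the deposited p-value comes from the software's error model for a single chip. From these, control spots and outlier-flagged spots (118 to 140 per chip, none of the 9 genes) were left out, and each log2 ratio was taken as running over sedentary. The series matrix, whose values are the log10 ratio of the deposited signals without that turn, was an alternative. Probes of an array designed on the rn4 build were named through accessions in the RefSeq table of GRCr8, used for names only, which named 10768 of 41012 probes. The technical SD is the robust spread, in 20 signal bins, of the difference between the dye terms of the pairs. Fold cutoffs and the p threshold follow the study's methods. The text names all 9 genes, 13 pathway genes whatever their values (1 of them is not reported here), pathway genes past the fold, and the 5 genes most like Rsad2. Pathway and antigen-processing genes named beyond these were chosen after their values were seen. Normalization alternatives used limma 3.58.1 in R 4.3.3, other steps Python 3.11.15, numpy 2.4.6 and pandas 2.3.3. The selection was tested on simulated data. The alternatives were p filters, cutoffs, background correction, centring, dim probes, flagged spots, the choice of probe, and each chip left out.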

Additional observations from a re-analysis of the deposited data

How the results depend on the processing

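Of the 9 genes, 0 passed the cutoffs in Sed × WR after normexp, 0 when no background was subtracted and 0 when the probes of a gene were combined by their median, which averages the dim Rsad2 probe into a log2 ratio of -0.15. In Sed × RWR 1 gene, Rsad2, passed without the p filter, 1 with p on at least 1 chip and 1 with the series matrix values. With a chip left out, 1 passed in Sed × WR either way and 0 to 1 in Sed × RWR, the latter without chip 3. The median of the 9 genes in Sed × WR was -0.18 with normexp, -0.14 without background correction, -0.21 over all probes, and -0.35 to -0.27 with a chip left out. In Sed × RWR it was -0.026 with normexp and -0.028 without background correction, and -0.17 to -0.11 with a chip left out, the latter without chip 3. The median of RWR minus WR was 0.15 to 0.25 with a chip left out, the latter without chip 2. Of the pathway genes, 2 passed in Sed × WR without the p filter, with p on at least 1 chip and with the series matrix, and 7 to 9 with a chip left out. In Sed × RWR 1 passed without background correction, 1 with the filter on dim probes, and 7 to 8 with a chip left out. These single-chip counts held 5 to 6 lower and 2 to 3 higher genes, where 701 to 1587 of 41012 probes were lower and 905 to 1614 higher. A single chip cannot remove the dye term. The normexp setting added an offset of 50 to the signal of each dye, and the other setting subtracted no background. An amount added to both dyes draws a ratio towards 0, most for dim spots. Its part in the shift of these medians and of Rsad2 was not tested. None of the medians above changed its sign. Rsad2, Oas1a, Gbp2 and Irf7 stayed below 0 in both comparisons under all 8 settings of the ratio and on every single chip. Mx1 did so under the 8 settings, but in Sed × RWR it was -0.0015 with normexp and 0.12 without chip 3. Ifit2 in Sed × RWR stayed below 0 under 7. Most of the 8 settings left these ratios nearly unchanged, as none of these spots was flagged and only Rsad2 and Ifit2 had another probe. The settings that could move them were normexp, no background correction and, for Rsad2 and Ifit2, the median over probes. No paired analysis was possible because the chips of a pair are dye swaps of the same pools and the ratio on each chip already pairs them. Signals near background limit Ifit3, Irf1 and the dimmer probes.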

Other observations

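Antigen processing and presentation, another set of functions that interferon gamma induces, was covered by 9 genes with a probe, 8 of the MHC class I route and Ciita. None passed the cutoffs, and the medians of the 9 were -0.09 in Sed × WR and -0.05 in Sed × RWR. Psmb8 and Psmb9, catalytic subunits of the immunoproteasome, had mean log2 ratios of -0.35 ± 0.05 and -0.31 ± 0.04 in Sed × WR and of -0.13 ± 0.05 and -0.09 ± 0.04 in Sed × RWR. Psmb8 had -0.07 and -0.62 on chips 1 and 2, and Psmb9 had -0.46 and -0.16. Psme1, Psme2 and Psmb10 lay between -0.09 and -0.01 in both comparisons. Ciita, which governs MHC class II genes, gave opposite directions on the chips of both pairs. Oasl2, a relative of Oas1a, had log2 ratios of -0.26, -0.53, -0.24 and -0.28 on chips 1 to 4. Its relatives Oas1d and Oas1i gave opposite directions on the chips of both pairs, as did Oasl in Sed × WR. Eif2ak2, another interferon-induced gene, had -0.10, 0.10, 0.20 and 0.22 on chips 1 to 4.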
